A study of Mus musculus with 27 samples.

Results

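The comparison set control cultures of TAMH cells at 24 h against control cultures at 2 h. TAMH is a mouse hepatocyte line whose donor animals were transgenic for the growth factor TGF-alpha (transforming growth factor alpha). The 6 arrays whose titles read CON at 24 h (3 arrays) and CON at 2 h (3 arrays) were used, out of 27 arrays in the series. Cells had been grown to confluence in serum-free medium with dexamethasone, nicotinamide, gentamicin, insulin, transferrin and selenium, at passages between 25 and 35, with 2 dishes for each treatment. They then received control medium in place of 2 mM acetaminophen (APAP) or 2 mM AMAP, the meta isomer of acetaminophen, and RNA was collected after 24 h or 2 h. Control arrays at 6 h (3 arrays) describe the course between both times, and 6 AMAP and 6 APAP arrays at 24 h and 2 h show the same interval in treated cultures. The 2 h control cultures are the earliest point, and cultures at the moment of dosing are not analysed here. The titles number the arrays of each group P30, P31 and P32, called 30, 31 and 32 here. The labels do not say whether these are passage numbers, or whether arrays of 1 number share a culture or batch. They also do not say that the arrays of a group came from separately grown cultures, so that p-values measure the spread between these arrays. All values come from this 1 transgenic line.

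The comparison shows how far the transcriptome of cultures given no drug differed between 24 h and 2 h. Early response genes encode transcription factors such as those of the EGR and MYC families, which growth factors and other stimuli induce without new protein synthesis. Many chemokine genes are controlled by NF-kB, the factor that acts downstream of tumour necrosis factor. Metallothioneins bind zinc and copper in the cytosol, and their genes, with the zinc exporter gene Slc30a1, are switched on by the zinc-sensing factor MTF1. NRF2 drives the genes of glutathione synthesis and of thioredoxin and glutathione recycling, and the clustered histone genes are transcribed mainly while DNA is being copied.

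Replicates were close. Pearson's r between arrays of a group, across genes, lay between 0.996 and 0.997 at 24 h and likewise between 0.996 and 0.997 at 2 h. Of 20 hepatocyte marker genes measured, the median lay at the 95.7th percentile of all genes, and albumin (Alb) read 13.75, 13.73 and 13.71 at 24 h, against 13.70, 13.45 and 13.68 at 2 h, so the hepatocyte label held in these cells. Median percentiles were 23.2 for 14 macrophage and leukocyte markers, 25.9 for 12 endothelial markers, 42.6 for 16 fibroblast and stellate cell markers and 76.7 for 6 biliary and progenitor markers. No marker of macrophages, endothelial cells or fibroblasts was called different between the times. In RNA from whole dishes, fewer cells of a type and less RNA per cell cannot be told apart. All values are log2 values from robust multi-array averaging (RMA), and each difference is on that log2 scale.

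Of 19938 genes tested with limma, 227 (1.14%) were called at a Benjamini-Hochberg adjusted p below 0.05, 102 higher at 24 h (0.512%) and 125 lower (0.627%). Called increases had a median size of 0.47 on the log2 scale (1.38-fold) and called decreases a median size of 0.45 (1.37-fold), against a median standard error of 0.10. Only 7 called genes changed at least 2-fold, namely Ccl20, Csf2, Egr1, Thbd and Itgb8 upward and H1f2 and Arrdc3 downward. At an unadjusted p below 0.05 the test gave 2797 genes (14%). In all 227 called genes the 3 arrays at 24 h lay entirely above or entirely below the 3 arrays at 2 h, as they did in 24.1% of all genes. The share of calls that were higher was 44.9%, but 28.0% once each array was centred on its median and 53.4% after quantile normalization. The number of calls leaned on single arrays. It was 25, 96 and 44 without the 24 h array numbered 30, 31 and 32 in turn, and 194, 43 and 33 without the 2 h array numbered 30, 31 and 32. Of the 227 calls, 56 held in no fit that left out 1 array or all arrays of a number. There were 22 genes that stayed called whichever of the 6 arrays was left out, 9 higher and 13 lower. Among the 9 were Ccl20, Egr1, Thbd, Itgb8, Ltb and Prss8, a membrane serine protease. Among the 13 were Arrdc3, Tgfbr1, Slc30a1, Hhex, Skil, the stress gene Gadd45g, the receptor Notch1 and Clcf1, a cytokine of the interleukin-6 family. Prss8, Gadd45g, Notch1 and Clcf1 were chosen for mention after their values were seen.

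Secreted signals of inflammation led the genes that were higher at 24 h. Of 36 chemokines and cytokines measured, 5 were called higher (Ccl20, Csf2, Cxcl1, Tnf and Ccl2; 13.9%, against 0.512% of all genes) and none lower, while the median of the list was 0.09, against 0.01 for all genes. Ccl20, a chemokine that attracts lymphocytes and dendritic cells, read 11.07, 10.71 and 11.16 at 24 h, against 9.64, 9.35 and 9.13 at 2 h. Its groups lay far apart, and the difference of 1.61 ± 0.26 (SE; 3.05-fold; adjusted p = 0.0026) was the largest increase among all genes tested. Csf2, which encodes the growth factor GM-CSF for granulocytes and macrophages, read 9.14, 8.88 and 9.39 at 24 h, against 7.88, 7.60 and 7.56 at 2 h. The difference was 1.46 ± 0.32 (SE; 2.75-fold; adjusted p = 0.0273). Cxcl1, a neutrophil chemokine, read 9.94, 9.80 and 10.24 at 24 h, against 9.01, 9.16 and 8.87 at 2 h, again with no overlap, and differed by 0.98 ± 0.21 (SE; 1.97-fold; adjusted p = 0.0243).

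Tnf, tumour necrosis factor itself, read 8.65, 8.46 and 8.74 at 24 h, against 7.97, 7.64 and 7.77 at 2 h, a difference of 0.82 ± 0.19 (SE; 1.77-fold; adjusted p = 0.0288). Ccl2, which attracts monocytes, was bright at both times with 11.96, 11.84 and 12.29 at 24 h, against 11.48, 11.34 and 11.41 at 2 h, and differed by 0.62 ± 0.15 (SE; 1.53-fold; adjusted p = 0.047). Ltb, the membrane-bound partner of lymphotoxin and outside the list, read 10.15, 9.71 and 9.97 at 24 h, against 9.37, 8.77 and 9.02 at 2 h and differed by 0.89 ± 0.14 (SE; 1.85-fold; adjusted p = 0.00236). Of these 6 genes, Ccl20 and Ltb kept an adjusted p of at most 0.0303 whichever single array was left out. The highest adjusted p on leaving out an array was 0.128 for Csf2, 0.13 for Cxcl1, 0.15 for Tnf and 0.231 for Ccl2. The arrays were the 2 h array 32 for Csf2 and Cxcl1, the 2 h array 31 for Tnf and the 24 h array 32 for Ccl2. Ccl2 lost its call whichever of the 6 arrays was left out. The median of the 14 macrophage and leukocyte markers differed by 0.06 and none of them was called. These markers were dim, with median levels of 5.85 at 24 h and 5.82 at 2 h, so a change in them could be missed. Of 17 NF-kB pathway genes none was called, although 7 of them had all 24 h arrays above all 2 h arrays (41.2%, against 10.2% of all genes), with a median of 0.16 and Vcam1, an adhesion molecule for leukocytes, at 0.55 (adjusted p = 0.116).

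The promoter of Cxcl1 is shown because it holds a strict form of the NF-kB motif close to the start of transcription. The sequence is the 250 bases before the RefSeq start in GRCm38.p6, at chr5:90890995-90891244, plus strand, and capitals mark the match to the letters GGGA, any base, TT, any base and CC, searched on both strands.
Cxcl1: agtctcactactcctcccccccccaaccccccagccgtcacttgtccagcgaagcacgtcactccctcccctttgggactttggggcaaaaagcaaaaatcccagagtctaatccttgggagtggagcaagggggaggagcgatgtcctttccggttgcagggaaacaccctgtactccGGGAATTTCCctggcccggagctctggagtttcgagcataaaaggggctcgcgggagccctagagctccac
The match ends 61 bases before the start. Among all 32851 windows of this length, 0.980% held the motif, among the windows of measured genes 1.085% did, and among the 96 windows of the called increases (79 genes with an entry) 4.17% did, that is 4 windows. The windows of Ccl20 and Ier3 held no run of these letters. Looser forms of the NF-kB motif were not searched, so this does not show that these windows lack an NF-kB site.

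**Figure D1:**
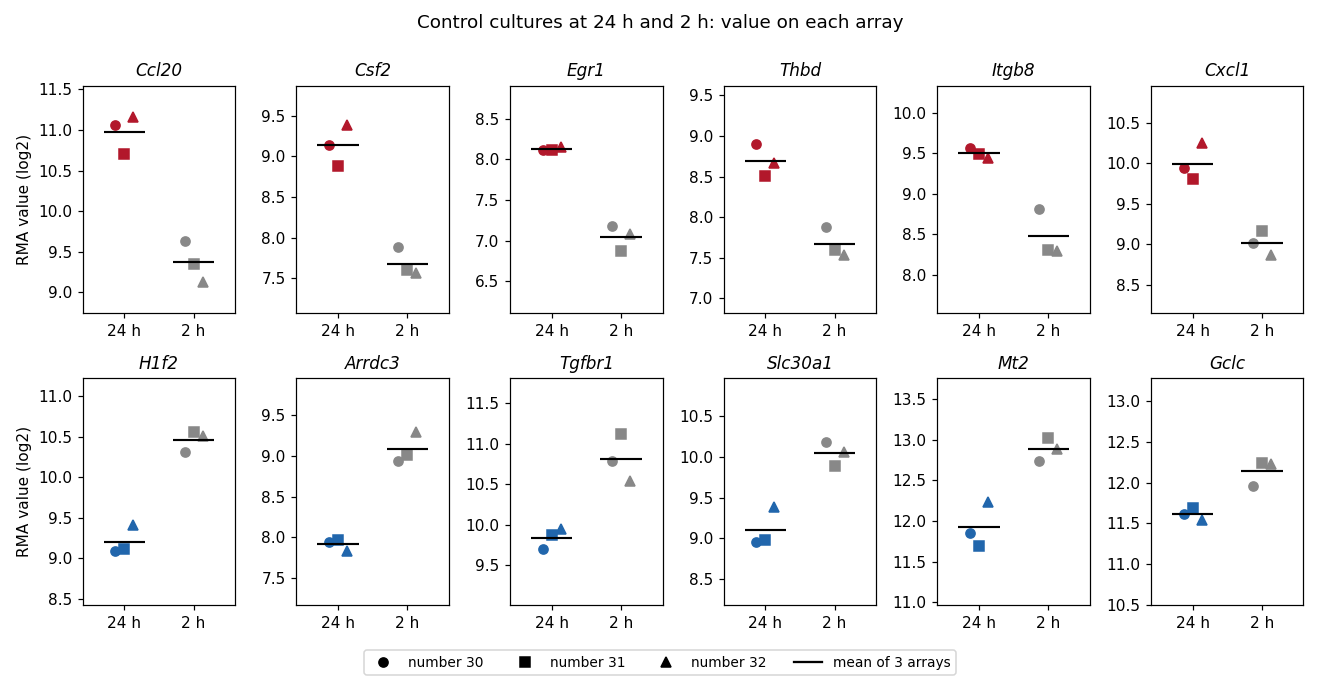
RMA values (log2) of 12 genes on each array, with 24 h control cultures (coloured) left of 2 h control cultures (grey), symbols for the array numbers 30, 31 and 32 and a bar for the mean of 3 arrays. Every panel spans the same range of log2 units, and in each the arrays of both times are fully separated.

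Of 28 immediate early and early response genes measured, 4 were called higher (Egr1, Zfp36, Ier3 and Myc, 14.3%, against 0.512% of all genes) and none lower, and the median of the list was 0.08. Egr1, a zinc finger factor induced by growth factors, read 8.12, 8.11 and 8.15 at 24 h, against 7.19, 6.87 and 7.08 at 2 h, a difference of 1.08 ± 0.16 (SE; 2.11-fold; adjusted p = 0.00137). The 24 h arrays agreed to within 0.02 (SD), and no array left out raised the adjusted p above 0.0142. Zfp36, which encodes tristetraprolin, a protein that destabilises cytokine mRNAs, differed by 0.64 ± 0.11 (SE; 1.55-fold; adjusted p = 0.00436). Ier3 differed by 0.73 ± 0.17 (SE; 1.66-fold; adjusted p = 0.0288) and Myc, the growth-promoting transcription factor, by 0.64 ± 0.16 (SE; 1.56-fold; adjusted p = 0.0397). Myc read 11.47, 11.47 and 11.60 at 24 h, against 10.74, 11.01 and 10.86 at 2 h, so a modest difference stood on high levels at both times. Without single arrays the adjusted p reached 0.0637 for Zfp36 (24 h array 30), 0.163 for Ier3 (2 h array 32) and 0.161 for Myc (24 h array 32). Myc lost its call whichever of the 6 arrays was left out.

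Several other early genes did not pass the test. Jun, a subunit of the AP-1 factor, read 8.77, 8.74 and 8.86 at 24 h, against 9.14, 9.61 and 9.18 at 2 h, a difference of -0.52 (adjusted p = 0.252). Nr4a1, an orphan nuclear receptor, differed by -0.57 (adjusted p = 0.0934) and Dusp1, a phosphatase that inactivates MAP kinases, by -0.52 (adjusted p = 0.179), both chosen after their values were seen. Fos, the partner of Jun, differed by 0.17 (adjusted p = 0.578). None of 18 feedback genes of the MAP kinase pathway was called, the smallest p belonging to Spry2, an inhibitor of receptor tyrosine kinase signalling, at 0.47 (adjusted p = 0.0711). Tgfa, the gene of the growth factor carried as the transgene of the line, read 9.75, 9.59 and 9.86 at 24 h, against 9.52, 9.20 and 9.35 at 2 h. It was the 1 called member among 14 EGF family ligands and ErbB receptors (7.14%, against 1.14% of all genes). Its difference was 0.38 ± 0.09 (SE; 1.3-fold; adjusted p = 0.0443), and without the 2 h array 31 its adjusted p was 0.262. Whether the transgene adds to this signal was not tested. Egfr, the receptor of TGF-alpha, differed by 0.14 (adjusted p = 0.539).

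Thbd, the thrombin receptor thrombomodulin, read 8.90, 8.51 and 8.67 at 24 h, against 7.88, 7.59 and 7.54 at 2 h, a difference of 1.02 ± 0.14 (SE; 2.03-fold; adjusted p = 0.00137). Its call was the single one of the 227 that held in all 9 fits with arrays left out, whether 1 array or all arrays of a number. Itgb8, an integrin subunit that takes part in the activation of latent TGF-beta, read 9.57, 9.49 and 9.44 at 24 h, against 8.81, 8.31 and 8.30 at 2 h and differed by 1.02 ± 0.17 (SE; 2.03-fold; adjusted p = 0.00262). Ankrd1, a target of the co-activator YAP, differed by 0.95 ± 0.22 (SE; 1.93-fold; adjusted p = 0.0334). Its call was lost whichever of the 6 arrays was left out, with an adjusted p of up to 0.159 (24 h array 30). Spib, an ETS family factor best known from B cells, differed by 0.93 ± 0.22 (SE; 1.9-fold; adjusted p = 0.0365). Gdf6, a ligand of the bone morphogenetic protein family, differed by 0.91 ± 0.20 (SE; 1.88-fold; adjusted p = 0.0262), and Depp1, a FOXO target gene, by 0.87 ± 0.20 (SE; 1.83-fold; adjusted p = 0.0315).

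Susd2, Pilra and Igsf9, which encode membrane proteins, completed the 15 largest called increases with differences of 0.88 (adjusted p = 0.0349), 0.84 (adjusted p = 0.0227) and 0.83 (adjusted p = 0.0153). Of the genes in this group, Spib, Gdf6, Depp1, Susd2, Pilra and Igsf9 lost their calls without any of 4 arrays. These were the 24 h arrays 30 and 32 and the 2 h arrays 31 and 32. Spib, Gdf6 and Susd2 also lost theirs without the 24 h array 31, and Depp1 without the 2 h array 30. The highest adjusted p of each gene, without the 24 h array 30 or the 2 h array 31, lay between 0.0993 and 0.228. Osmr, the oncostatin M receptor, differed by 0.56 (adjusted p = 0.0225), and the interferon and interleukin receptor chains Ifnar2 and Il10rb, chosen after their values were seen, by 0.56 (adjusted p = 0.0182) and 0.55 (adjusted p = 0.0273). Il6ra, the receptor for interleukin-6, was called in the other direction at -0.45 (adjusted p = 0.0498). Sting1, the adaptor of cytosolic DNA sensing, read 10.09, 9.88 and 10.13 at 24 h, against 9.44, 9.29 and 9.56 at 2 h. It was the 1 called gene of 25 in the interferon list (4%, against 1.14% of all genes), at 0.60 (adjusted p = 0.0147), while the median of that list was close to 0. Without single arrays the adjusted p of these 5 genes reached 0.0969 to 0.181.

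The p53 target list had 2 called members of 24, both death receptors (8.33%, against 0.512% of all genes called higher). Fas differed by 0.49 (adjusted p = 0.0197) and Tnfrsf10b, the mouse receptor for TRAIL, by 0.33 (adjusted p = 0.0371), while the median of the list was close to 0. Lysosomal and autophagy genes had no call. Of 32 measured, 12 had all 24 h arrays above all 2 h arrays (37.5%, against 10.2% of all genes) and 7 had them below (21.9%, against 13.9% of all genes). The median was 0.11, with Npc1, the lysosomal cholesterol transporter, at 0.33 (adjusted p = 0.0641). Outside the list, the lysosomal genes Arsa (arylsulfatase A), Ifi30 (a thiol reductase) and Tcirg1 (a subunit of the proton pump), chosen after their values were seen, were called at 0.44 (adjusted p = 0.0311), 0.38 (adjusted p = 0.0241) and 0.34 (adjusted p = 0.0486). Leaving out single arrays ended all of these calls, with adjusted p up to 0.236. Small nucleolar RNAs guide the modification of ribosomal RNA. Of 54 measured, 51 had a positive difference and 28 were fully separated upward (51.9%, against 10.2% of all genes), none was called, and the median was 0.26.

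Histone genes were the group with the most calls among the decreases. Of 26 replication-dependent histone genes measured, 9 were called lower at 24 h (34.6%, against 0.627% of all genes) and none higher. The list had a median of -0.50, and 23 members had all 24 h arrays below all 2 h arrays (88.5%, against 13.9% of all genes). H1f2, a linker histone, read 9.09, 9.12 and 9.41 at 24 h, against 10.31, 10.55 and 10.51 at 2 h. At a difference of -1.25 ± 0.22 (SE; 2.38-fold; adjusted p = 0.00533) it was the largest decrease of the comparison. H1f1, another linker histone, read 10.79, 10.88 and 10.96 at 24 h, against 11.64, 11.73 and 11.97 at 2 h and differed by -0.90 ± 0.18 (SE; 1.87-fold; adjusted p = 0.0147). Core histone genes had smaller differences. H2bc3 differed by -0.72 (adjusted p = 0.041), H4c6 by -0.62 (adjusted p = 0.0338), H2bc1 by -0.54 (adjusted p = 0.0317), H3c15 by -0.52 (adjusted p = 0.0276), H4c14 by -0.52 (adjusted p = 0.0225), H4c4 by -0.50 (adjusted p = 0.03) and H4c8 by -0.46 (adjusted p = 0.019). On the 24 h arrays H4c14 varied by only 0.01 (SD), at 10.79, 10.78 and 10.79 at 24 h, against 11.37, 11.24 and 11.31 at 2 h.

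These calls were fragile one by one. With a single array left out, between 0 and 3 of the 26 histone genes remained called, none without the 24 h array 30, while the median of the list stayed between -0.53 and -0.44. The coding sequences of core histones are near identical between copies, so a probe set can also read other members of the family, and the single members are uncertain. DNA replication genes had negative differences of smaller size and no call. Of 43 measured, 42 had a negative difference, 28 were fully separated downward (65.1%, against 13.9% of all genes), and the median was -0.17, with Mcm5, a subunit of the replicative helicase, at -0.31 (adjusted p = 0.118). Of 52 mitotic genes none was called, with a median of -0.09. Mki67, a proliferation marker, read 11.44, 11.48 and 11.31 at 24 h, against 11.28, 11.27 and 11.27 at 2 h, a difference of 0.14 (adjusted p = 0.575). Ccnd1, cyclin D1, differed by 0.13 (adjusted p = 0.6). Among CDK inhibitors, D cyclins and related genes, 2 of 17 were called (11.8%, against 1.14% of all genes). They were Cdkn2c at -0.48 (adjusted p = 0.0315) and the anti-proliferative gene Tob1 at -0.35 (adjusted p = 0.0315), with adjusted p up to 0.19 without single arrays.

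Among genes that respond to zinc, Slc30a1, Mt2 and Mt1 were called lower at 24 h. Slc30a1, the plasma membrane exporter of zinc, read 8.96, 8.98 and 9.38 at 24 h, against 10.19, 9.89 and 10.06 at 2 h, a difference of -0.94 ± 0.13 (SE; 1.91-fold; adjusted p = 0.00137). It stayed called without any single array, with an adjusted p of at most 0.0141. Mt2 read 11.85, 11.70 and 12.23 at 24 h, against 12.74, 13.03 and 12.89 at 2 h and Mt1 read 12.03, 11.88 and 12.26 at 24 h, against 12.59, 12.76 and 12.80 at 2 h, so that both metallothionein genes were bright at both times and lower at 24 h. The differences were -0.96 ± 0.22 (SE; 1.95-fold; adjusted p = 0.0315) for Mt2 and -0.66 ± 0.14 (SE; 1.58-fold; adjusted p = 0.0238) for Mt1, and without single arrays the adjusted p reached 0.153 (24 h array 30) and 0.128 (2 h array 32). These 3 were the called members of 16 metal-handling genes (18.8%, against 0.627% of all genes called lower), and the median of the 16 was 0.13. Slc40a1, the iron exporter ferroportin, named after its values were seen, differed by -0.63 (adjusted p = 0.0565). Among copper transporters outside the list, Slc31a2 and Atp7a, also chosen after their values were seen, were higher at 0.58 (adjusted p = 0.0132) and 0.45 (adjusted p = 0.0177), and without single arrays their adjusted p reached 0.0932 to 0.0993.

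The promoters of the 3 zinc-responsive genes are shown because they carry the metal response element, the motif that MTF1 recognises. Each line gives the 250 bases before the RefSeq start in GRCm38.p6, 5′ to 3′ on the strand of the gene, and capitals mark matches to TGCACNC or TGCGCNC on either strand. The windows lie at chr1:191906531-191906780, plus strand, at chr8:94178839-94179088, plus strand and at chr8:94172368-94172617, plus strand.
Slc30a1: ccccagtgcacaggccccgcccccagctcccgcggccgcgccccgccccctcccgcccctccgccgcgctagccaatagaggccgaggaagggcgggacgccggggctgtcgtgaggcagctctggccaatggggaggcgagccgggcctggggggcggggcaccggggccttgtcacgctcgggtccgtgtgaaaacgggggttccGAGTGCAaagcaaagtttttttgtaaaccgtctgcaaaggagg
Mt1: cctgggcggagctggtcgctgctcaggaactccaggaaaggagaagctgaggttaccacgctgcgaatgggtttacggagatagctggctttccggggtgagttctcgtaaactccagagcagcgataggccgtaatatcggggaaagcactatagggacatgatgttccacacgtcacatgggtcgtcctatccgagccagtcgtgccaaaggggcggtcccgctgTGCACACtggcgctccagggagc
Mt2: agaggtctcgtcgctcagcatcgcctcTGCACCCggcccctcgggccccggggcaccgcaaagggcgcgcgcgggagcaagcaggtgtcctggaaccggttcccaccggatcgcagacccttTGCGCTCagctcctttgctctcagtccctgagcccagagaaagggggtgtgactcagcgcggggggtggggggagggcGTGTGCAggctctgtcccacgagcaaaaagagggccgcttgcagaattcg
Within these windows Slc30a1 and Mt1 had 1 match each and Mt2 had 3. Sequence outside the windows, including that after the RefSeq start, was not searched, so these are not counts for the whole promoters. The motif is short and common. It was found in 21.4% of all windows, in 25.6% of the windows of measured genes, in 30.2% of the 129 windows of the called decreases and in 31.3% of the 96 windows of the called increases.

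NRF2 target genes had 3 called decreases of 24 (12.5%, against 0.627% of all genes) and no called increase, with a median of -0.17. Gclc, the catalytic subunit of the enzyme that starts glutathione synthesis, read 11.62, 11.68 and 11.54 at 24 h, against 11.95, 12.24 and 12.23 at 2 h, a difference of -0.53 ± 0.11 (SE; 1.44-fold; adjusted p = 0.0176). Gsr, glutathione reductase, differed by -0.45 (adjusted p = 0.0308) and Ugdh, which makes UDP-glucuronic acid, by -0.45 (adjusted p = 0.0467). Near the threshold lay Cbr3, a carbonyl reductase, at -0.37 (adjusted p = 0.0502), Srxn1, sulfiredoxin, at -0.40 (adjusted p = 0.0619), and Gclm, the partner subunit of Gclc, at -0.49 (adjusted p = 0.0716). The cystine importer gene Slc7a11 had the largest difference of the list, -1.14 (adjusted p = 0.102), on widely spread arrays that read 7.50, 7.77 and 8.42 at 24 h, against 8.24, 9.45 and 9.41 at 2 h. These last 4 genes were chosen after their values were seen. The list depended on single arrays, with 5 calls without the 2 h array 30, 1 without the 24 h array 31 and 0 without each of the other 4. The median stayed between -0.25 and -0.13.

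Genes of amino acid supply and of sterol synthesis gave 4 calls (4.76% and 9.09% of the genes in their lists, against 1.14% of all genes). Of 42 genes of the integrated stress response, the program that ATF4 drives when amino acids are short, 36 had a negative difference. Among all 19938 genes, 9647 had one. The median of the list was -0.21. Cth, the last enzyme of cysteine synthesis, was called lower at -0.51 (adjusted p = 0.0351) and Cebpg, a partner of ATF4, higher at 0.36 (adjusted p = 0.0278). Asns, asparagine synthetase, read 11.07, 11.42 and 11.51 at 24 h, against 11.50, 11.96 and 11.92 at 2 h, a difference of -0.46 (adjusted p = 0.163). Of 22 genes of cholesterol synthesis and uptake, 14 had all 24 h arrays below all 2 h arrays (63.6%, against 13.9% of all genes) and the median was -0.17. Stard4, a sterol carrier, was called lower at -0.39 (adjusted p = 0.0227), on arrays that agreed to within 0.03 (SD) at both times. Insig2, which holds the sterol-sensing complex in the endoplasmic reticulum, was called higher at 0.51 (adjusted p = 0.0315). Hmgcs1, an early enzyme of the pathway chosen after its values were seen, differed by -0.55 (adjusted p = 0.0925). Without single arrays the adjusted p of these 4 called genes reached 0.0993 to 0.224. Txnip, a gene induced by glucose, spread widely, with 11.57, 11.44 and 10.93 at 24 h, against 10.53, 10.82 and 10.97 at 2 h, and differed by 0.54 (adjusted p = 0.272).

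Of 24 genes of the TGF-beta pathway and YAP targets, 2 were called lower and 1 higher, against 0.627% and 0.512% of all genes. Tgfbr1, the signalling receptor, read 9.71, 9.87 and 9.94 at 24 h, against 10.79, 11.11 and 10.54 at 2 h, a difference of -0.97 ± 0.16 (SE; 1.97-fold; adjusted p = 0.00246), and Skil, a co-repressor of SMAD proteins, read 8.66, 8.92 and 8.76 at 24 h, against 9.81, 9.48 and 9.40 at 2 h, a difference of -0.78 ± 0.12 (SE; 1.72-fold; adjusted p = 0.00149). Both stayed called without any single array. Smad7, an inhibitor of the receptor chosen after its values were seen, differed by -0.58 (adjusted p = 0.0566), and the YAP target Ankrd1 was the called increase of the list, whose median was 0.05. None of 17 hepatocyte transcription factors and nuclear receptors was called, with a median of -0.08. Of 6 biliary and progenitor markers 1 was called (16.7%, against 1.14% of all genes), with a median close to 0. Hhex, a homeobox gene required for the liver bud, read 8.65, 8.62 and 8.86 at 24 h, against 9.52, 9.38 and 9.66 at 2 h and differed by -0.81 ± 0.12 (SE; 1.75-fold; adjusted p = 0.00137), with an adjusted p of at most 0.0141 without single arrays. Sox9, the called biliary and progenitor marker, differed by -0.53 (adjusted p = 0.019), and Id2, an inhibitor of helix-loop-helix factors, by -0.80 (adjusted p = 0.0288). Their adjusted p reached 0.101 and 0.161 without single arrays. Notch1 differed by -0.60 (adjusted p = 0.00281) and Jag1, a ligand of Notch receptors, by 0.52 (adjusted p = 0.0225) in the opposite direction, and both were chosen after their values were seen. Notch1 stayed called without any single array, and Jag1 reached an adjusted p of 0.109.

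Dexamethasone was in the medium, and of 15 genes of the glucocorticoid receptor list (the receptor and its targets), 8 had all 24 h arrays below all 2 h arrays (53.3%, against 13.9% of all genes), with a median of -0.25 and with Mt1 and Mt2 as the called members. Differentiated liver functions gave few calls. None of 20 hepatocyte markers was called, although 16 had a positive difference and the median was 0.24, which lay between 0.06 and 0.38 as single arrays were left out. Hnf4a, the central hepatocyte transcription factor, had the smallest p of that list at -0.45 (adjusted p = 0.0812), in the opposite direction to the median. None of 72 cytochrome P450 genes, 18 apolipoprotein genes, 36 coagulation and complement genes or 20 glutathione transferase genes was called. The cytochrome P450 list was dim, with median levels of 5.42 at 24 h and 5.38 at 2 h, against 7.30 and 7.28 for all genes. The list of conjugation, hydrolysis and flavin oxidation was dim too, at 5.69 and 5.65. A lack of calls in these 2 lists therefore says little. Of 47 genes of conjugation, hydrolysis and flavin oxidation, 1 was called (2.13%, against 1.14% of all genes). It was Ces2e, a carboxylesterase, higher at 0.34 (adjusted p = 0.0182, and 0.109 without the 24 h array 30). Aox1, aldehyde oxidase, read 7.37, 7.37 and 7.33 at 24 h, against 7.97, 8.15 and 8.15 at 2 h and differed by -0.73 ± 0.14 (SE; 1.66-fold; adjusted p = 0.0128), with an adjusted p of 0.0702 without the 2 h array 32. The proteasome list had no call among 43 genes, with 28 fully separated downward (65.1%, against 13.9% of all genes) and a median of -0.15, and the median of 53 cytosolic ribosomal proteins was -0.02.

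The remaining large decreases came from unrelated families. Arrdc3, an alpha-arrestin that guides membrane receptors to degradation, read 7.94, 7.96 and 7.83 at 24 h, against 8.94, 9.02 and 9.29 at 2 h, a difference of -1.17 ± 0.19 (SE; 2.25-fold; adjusted p = 0.00236), and was called without any single array. Gpcpd1, a glycerophosphodiesterase, differed by -0.93 (adjusted p = 0.041), and Cirbp, an RNA-binding protein induced by cold, by -0.78 (adjusted p = 0.0288). Nipal1, a magnesium transporter, differed by -0.76 (adjusted p = 0.0349), and Slc16a6, of the monocarboxylate transporter family, by -0.70 (adjusted p = 0.0308). Socs2, an inhibitor of growth hormone signalling, was 1 of 2 called genes among 15 of the growth hormone and IGF axis (13.3%, against 1.14% of all genes). It read 7.37, 7.35 and 7.54 at 24 h, against 8.07, 8.13 and 8.12 at 2 h and differed by -0.69 ± 0.14 (SE; 1.61-fold; adjusted p = 0.0147). The other called gene, Igfbp7, which binds insulin-like growth factors, was higher at 0.26 (adjusted p = 0.0425). Among the large decreases other than Arrdc3, the adjusted p without single arrays reached 0.0891 to 0.18. Tubulin genes Tuba8, Tubb4a and Tubb2a, chosen after their values were seen, were lower by differences of -0.62 (adjusted p = 0.0128), -0.56 (adjusted p = 0.0258) and -0.51 (adjusted p = 0.041). Collagen XII (Col12a1) was the 1 called gene of 51 collagen genes and their modifying enzymes (1.96%, against 1.14% of all genes), at -0.48 (adjusted p = 0.0495). Without single arrays the adjusted p of the tubulin genes, Igfbp7 and Col12a1 reached 0.0696 to 0.3.

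The circadian clock is a feedback loop of transcription factors that runs in most cells, and each of its genes was looked up. Of 19 measured, 2 were called lower at 24 h (10.5%, against 0.627% of all genes) and none higher. Arntl, the activator that pairs with CLOCK, read 8.43, 8.49 and 8.38 at 24 h, against 8.85, 8.88 and 8.86 at 2 h, a difference of -0.43 ± 0.10 (SE; 1.35-fold; adjusted p = 0.0368), and Cry2, a repressor of the clock, read 8.34, 8.24 and 8.22 at 24 h, against 8.62, 8.64 and 8.64 at 2 h, a difference of -0.36 ± 0.09 (SE; 1.29-fold; adjusted p = 0.0495). Neither kept its call when a single array of the 6 was left out, whichever it was. The nuclear receptor gene Nr1d1, a repressor of Arntl, had the largest difference in the other direction, 0.38 (adjusted p = 0.117), while its relative Nr1d2 differed by -0.04. Period genes differed by -0.25 (Per1), -0.22 (Per2) and -0.03 (Per3), and Cry1 by -0.06. Output genes of the clock differed by -0.01 (Dbp), -0.17 (Tef), -0.01 (Hlf) and -0.26 (Nfil3). The kinases Csnk1d and Csnk1e differed by -0.08 and 0.24, Clock and Rora by -0.02 and -0.17, and Bhlhe40, Bhlhe41 and Ciart by -0.16, -0.24 and -0.04. None of the others passed the test.

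**Figure D2:**
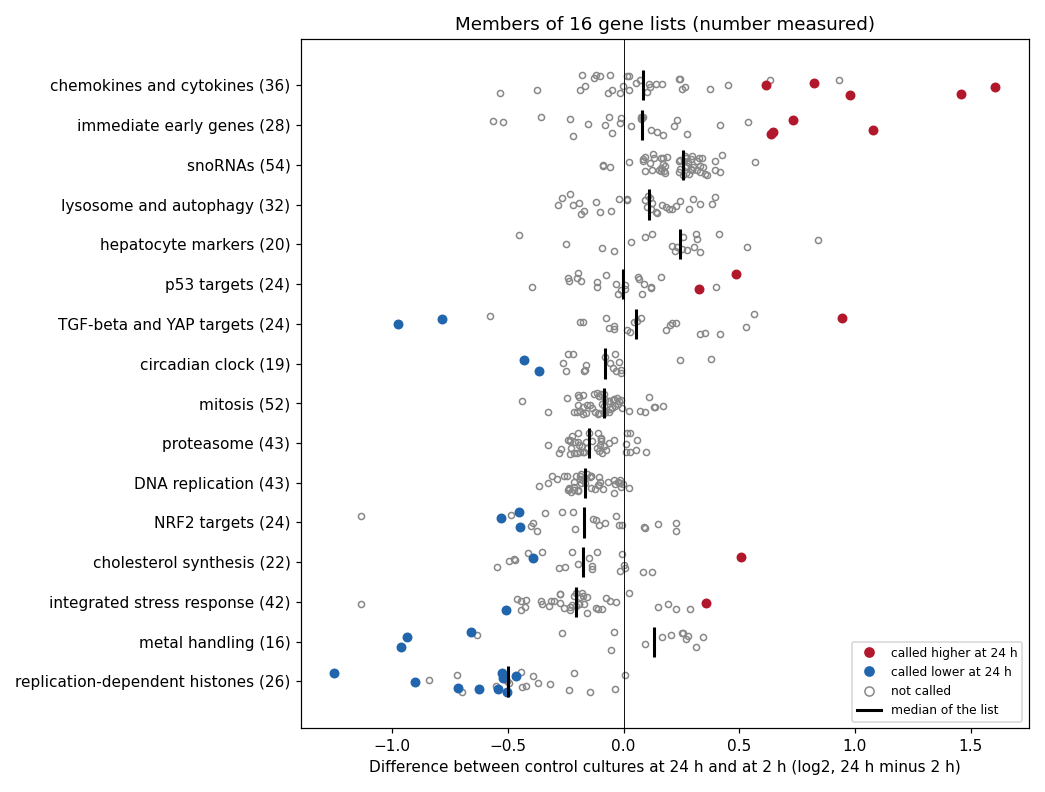
Differences between 24 h and 2 h control cultures (log2, 24 h minus 2 h) for each measured member of 16 gene lists, with filled points for genes called at an adjusted p below 0.05 and a black bar at the median. The called members of the chemokine and early gene lists lie to the right of 0, those of the histone, NRF2 and metal lists to the left, and the snoRNA and replication lists shift with no called member.

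At 6 h the means of most called genes lay between those of 2 h and 24 h. The 6 h means are given as a description, with no test, since they are set against the same 2 h and 24 h arrays. For 87 of the 102 called increases the 6 h mean lay between the 2 h and 24 h means, for 14 it lay past the 24 h mean and for 1 on the far side of the 2 h mean. For the 125 called decreases these numbers were 106, 17 and 2. Over all genes the 6 h mean lay between both other means in 41.2%. The median share of the 2 h to 24 h difference present at 6 h was 67.9% for the increases and 56.2% for the decreases, against 51.9% for all genes.

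Single genes followed different courses. Means over 2, 6 and 24 h, each with its SD over 3 arrays, were 9.37 ± 0.25, 10.75 ± 0.56 and 10.98 ± 0.24 for Ccl20 and 7.68 ± 0.18, 9.37 ± 0.65 and 9.14 ± 0.25 for Csf2. By 6 h, 85.7% of the difference was present for Ccl20 and 116% for Csf2, with a wide spread between the 6 h arrays. Depp1 had a 6 h mean near its 2 h mean, with 7.55 ± 0.15, 7.41 ± 0.08 and 8.42 ± 0.38. Slc30a1 was lowest at 6 h, with 10.04 ± 0.15, 8.74 ± 0.10 and 9.11 ± 0.24, whereas Mt2 was still near its 2 h level then, with 12.89 ± 0.14, 12.79 ± 0.28 and 11.93 ± 0.27. The exporter gene and the metallothionein gene thus parted at 6 h, and Mt1, at 12.72 ± 0.11, 12.64 ± 0.15 and 12.06 ± 0.19, went with Mt2. H1f2 was in between at 6 h, with 10.46 ± 0.13, 9.89 ± 0.11 and 9.21 ± 0.17, and H1f1 was already low, with 11.78 ± 0.17, 10.72 ± 0.36 and 10.88 ± 0.09.

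**Figure D3:**
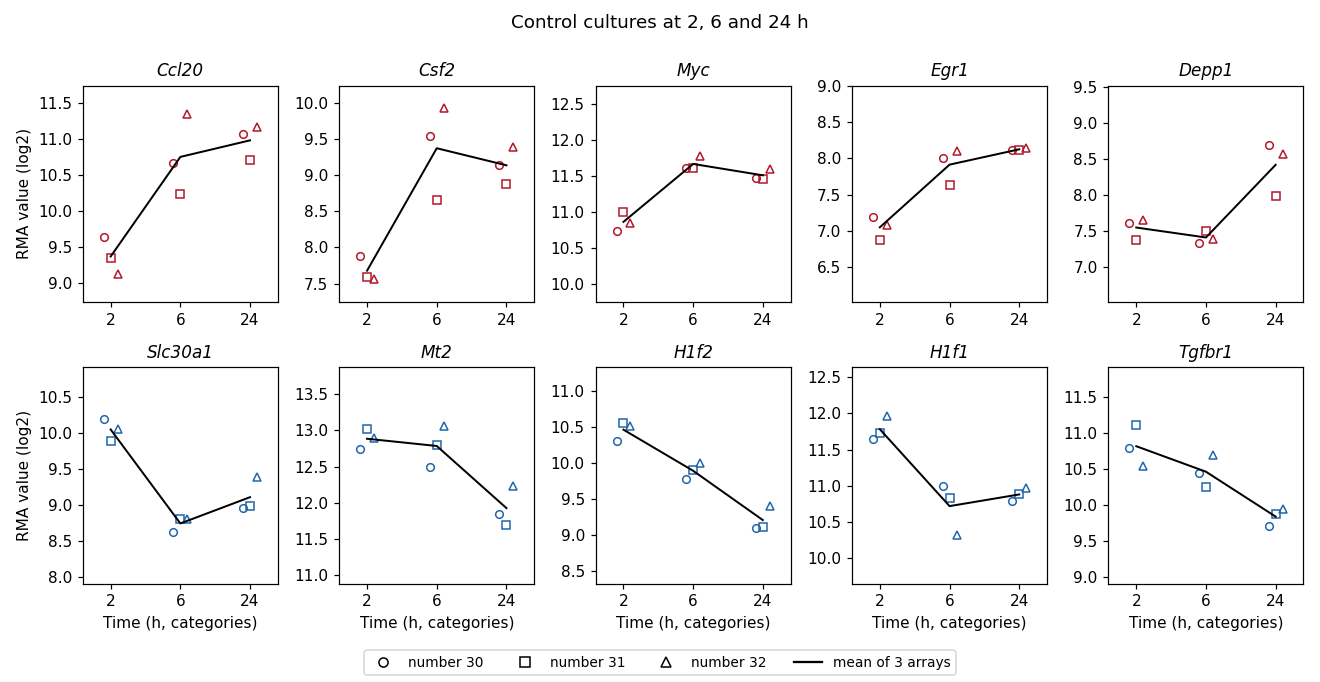
RMA values (log2) of 10 genes in control cultures at 2, 6 and 24 h, with a symbol for each array and a line through the means of 3 arrays. Csf2, Myc, H1f1 and Slc30a1 had reached or passed their 24 h mean by 6 h, and the 6 h means of Depp1 and Mt2 lay near their 2 h means.

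The same interval in AMAP and APAP cultures shares no array with the control comparison, but it was tested in the same fit. Each gene therefore had the same pooled estimate of spread in all of these comparisons. A gene with a small pooled spread is more easily called in each of them. The shares of all genes given below are thus not a matched baseline, and the overlap of calls can be overstated. Between 24 h and 2 h, 1896 genes were called in AMAP cultures (9.51%) and 2974 in APAP cultures (14.9%). Of the 102 genes higher in control cultures at 24 h, 71 (69.6%, against 4.83% of all genes) were called higher in AMAP cultures too. In APAP cultures 65 were (63.7%, against 5.47% of all genes). They made up 7.37% of the AMAP increases and 5.96% of the APAP increases, against 0.512% of all genes called higher in control cultures. Of the 125 genes lower in control cultures at 24 h, 73 (58.4%, against 4.68% of all genes) were called lower in AMAP cultures. In APAP cultures 82 were (65.6%, against 9.44% of all genes). They made up 7.82% of the AMAP decreases and 4.36% of the APAP decreases, against 0.627% of all genes called lower in control cultures. Signs need no call, but they too are more reliable in genes with a small spread, so this limit holds for them as well. Of the 102 increases, 98 were also positive in AMAP cultures and 97 in APAP cultures, against 56.1% and 52.5% of all genes. Of the 125 decreases, 122 were also negative in AMAP cultures and 113 in APAP cultures, against 43.9% and 47.5% of all genes. None of the 227 genes was called in the opposite direction in AMAP cultures. Only Arrdc3, Col12a1, H4c8 and Arap2 were in APAP cultures, and Arap2 is named because it was in that count.

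The difference between the control change and the AMAP change was tested gene by gene. With limma 0 of 19938 genes were called, 937 (4.70%) had an unadjusted p below 0.05, and the smallest adjusted p was 0.210. Against APAP, 71 genes (0.356%) were called, 37 with a higher and 34 with a lower change in control cultures. This count was 0, 8 and 32 without all arrays numbered 30, 31 and 32 in turn. Among them were 8 of the 227 genes of the control comparison, namely Arrdc3, Egr1, Stard4, H4c8, Ces2e, Col12a1, H2aw and Arap2, and H2aw was likewise named for being in this count.

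Arrdc3 had the largest difference of these 8 genes. Its change from 2 h to 24 h was -1.17 in control cultures, -0.41 in AMAP cultures and 0.66 in APAP cultures, so that the control change minus the APAP change was -1.83 ± 0.26 (SE; adjusted p = 0.00054). For Egr1 the changes were 1.08 in control cultures, 0.72 in AMAP cultures and 0.10 in APAP cultures, and the control change exceeded the APAP change by 0.98 ± 0.22 (SE; adjusted p = 0.0454). The median change of the 26 histone genes was -0.50 in control cultures, -0.63 in AMAP cultures and 0.06 in APAP cultures, and 2 of the 26 genes were called lower in the control change than in the APAP change (7.69%, against 0.171% of all genes). These were H4c8, with changes of -0.46 in control cultures, -0.53 in AMAP cultures and 0.35 in APAP cultures and a difference of -0.81 ± 0.14 (SE; adjusted p = 0.00374), and H2ac15, named for this count, with a difference of -0.74 ± 0.16 (SE; adjusted p = 0.0385). The linker histone gene H1f2 had changes of -1.25 in control cultures, -1.55 in AMAP cultures and -1.28 in APAP cultures. It was not alone. In APAP cultures 5 of the 26 histone genes were called lower and 1 higher, against 9.44% and 5.47% of all genes. Among those called lower were also H1f1, with a change of -0.90, and H3c15, with -0.77.

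For the 22 sterol genes the median change was -0.17 in control cultures, -0.12 in AMAP cultures and -0.90 in APAP cultures, and 6 of 22 were called higher in the control change than in the APAP change, against 0.186% of all genes. Stard4 changed by -0.39 in control cultures, -0.36 in AMAP cultures and -1.14 in APAP cultures, a control minus APAP difference of 0.75 ± 0.12 (SE; adjusted p = 0.00247). Among the zinc-responsive genes Slc30a1 changed by -0.94 in control cultures, -0.82 in AMAP cultures and -0.83 in APAP cultures, and Mt2 by -0.96 in control cultures, -0.80 in AMAP cultures and -0.92 in APAP cultures. The control minus APAP difference was -0.11 ± 0.38 for Slc30a1 and -0.04 ± 0.65 for Mt2 (95% confidence interval). Ccl20 had changes of 1.61 in control cultures, 1.89 in AMAP cultures and 1.43 in APAP cultures, and its control minus APAP difference was 0.18 ± 0.77 (95% confidence interval). Ces2e changed by 0.34 in control cultures, -0.15 in AMAP cultures and 1.14 in APAP cultures, with a control minus APAP difference of -0.80 ± 0.10 (SE; adjusted p = 0.00013).

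**Figure D4:**
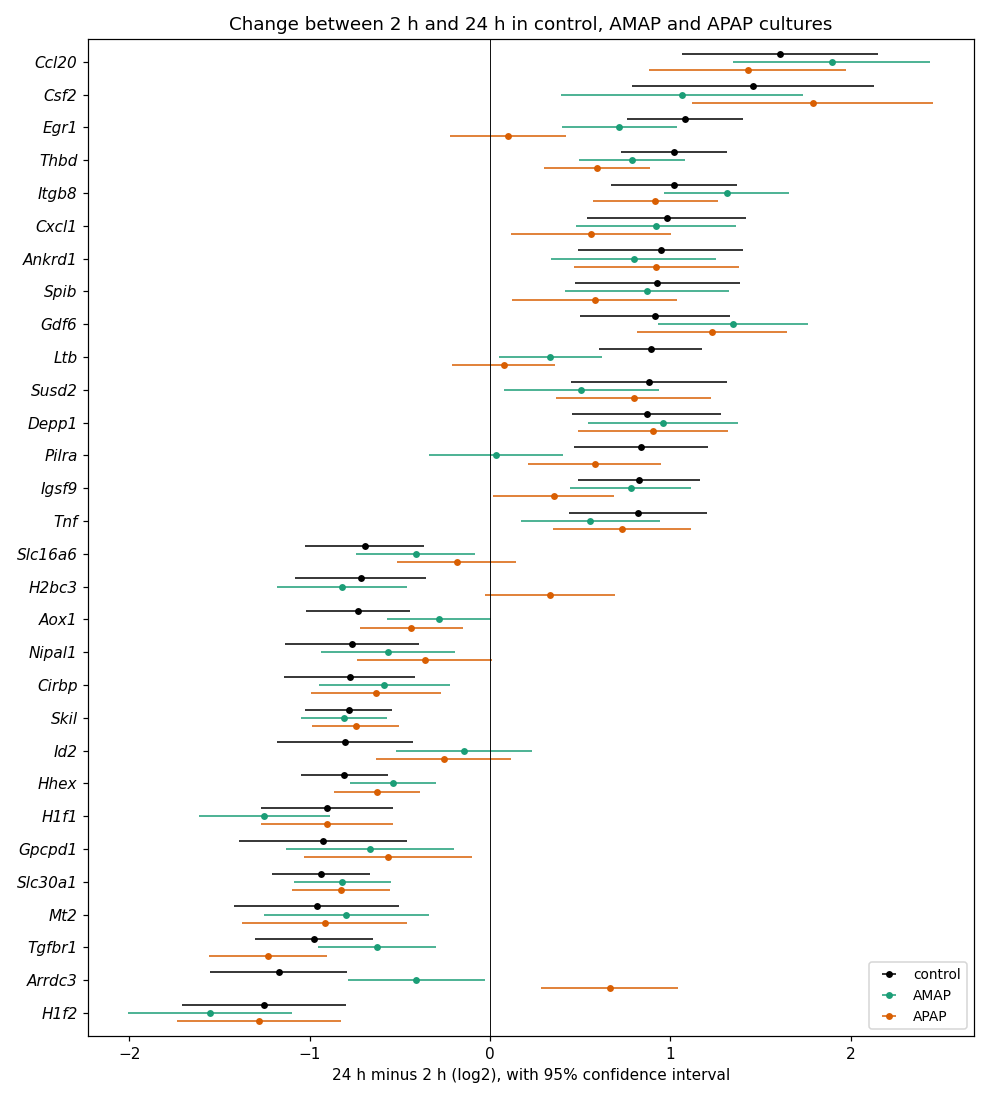
Change between 2 h and 24 h (log2, 24 h minus 2 h) of the 15 largest called increases and 15 largest called decreases of control cultures, drawn for control, AMAP and APAP cultures with 95% confidence intervals from limma. Most intervals of the treated cultures overlap those of the control cultures, while Arrdc3 lies at -1.17 in control cultures, -0.41 in AMAP cultures and 0.66 in APAP cultures.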

How the data were processed

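RNA from TAMH cells was measured on Affymetrix whole-transcript mouse arrays, 27 in all. The deposited values are log2 expression values that the authors made with Affymetrix Expression Console 1.1 and RMA, per the submitters' processing notes. Array number limits the precision. Each gene was represented by its brightest probe set (by the mean of the 27 arrays), which left 19938 genes. limma 3.58.1 in R 4.3.3 was fitted to 9 group means over the 27 arrays, which share 1 estimate of the spread (18 residual degrees of freedom), followed by eBayes and Benjamini-Hochberg adjustment over all genes, with calls at 0.05. Differences of changes were contrasts of the same fit. On simulated data of this size, 71.6% of genes changed by 0.5 on the log2 scale and 98.5% of those changed by 1 were recovered. The simulated errors were normal and independent between arrays, with no effect shared by arrays of 1 number, so these shares describe that setting only. Named genes were the 15 largest called increases and decreases with separated arrays and a mean of at least 6 in the higher group, up to 6 called members per gene list (otherwise the member with the smallest p), all clock genes, up to 5 genes per difference of changes, and a fixed panel. The comparison, members and lists were chosen with earlier results of these data known. Promoter sequences came from RefSeq (GRCm38.p6). Alternatives changed the arrays fitted, the scaling, the weights, the probe set rule, the filter on dim genes and the array number as a block.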

Additional observations from a re-analysis of the deposited data

Results flagged for a closer look

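The change between 2 h and 24 h was compared between control and APAP cultures gene by gene with limma, and 12 named genes differed at a Benjamini-Hochberg adjusted p below 0.05 over all genes. All values are control change minus APAP change on the log2 scale. Arrdc3 had the largest, -1.835 (adjusted p = 0.00054). Egr1 and Stard4 changed more positively in control cultures, by 0.9782 (adjusted p = 0.0454) and 0.7458 (adjusted p = 0.00247). The histone genes H4c8, H2ac15 and H2aw changed more negatively, by -0.812 (adjusted p = 0.00374), -0.7407 (adjusted p = 0.0385) and -0.697 (adjusted p = 0.0276). So did Col12a1 at -1.338 (adjusted p = 0.000224), Ces2e at -0.7992 (adjusted p = 0.00013) and Arap2 at -0.927 (adjusted p = 0.00054). Pm20d1, Cdc42bpg and Exoc4, which were not called in control cultures, differed by -1.304 (adjusted p = 6.53e-05), -0.8226 (adjusted p = 0.000239) and -0.8078 (adjusted p = 0.000415). None of the 71 calls of this kind was left without the 9 arrays numbered 30.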

How the results depend on the processing

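The count of 227 genes between 24 h and 2 h control cultures stayed within 1.5 times with arrays centred on their medians (297), quantile normalization (309), an intensity trend with robust prior (312) and the mean over a gene's probe sets (233). It was 123 from the 6 arrays alone, 147 from the 9 control arrays, 894 with array weights, 400 without dim genes, 65 over all probe sets and 7 with at least a 2-fold change. Leaving out a number or a single array gave 12 to 194. For the control minus AMAP difference, counts were 0 without each number and 0 after centring. For the control minus APAP difference, 71 calls became 78 after centring and 0 to 32 without each number. Fewer arrays or a stricter rule account for part of these shifts by construction, and the cause of the others was not tested.

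With the array number as a replicate block, 502 genes were called over all 27 arrays and 62 over the 6 arrays, and the differences of changes gave 7 calls against AMAP and 187 against APAP. Deviations of same-numbered 24 h and 2 h arrays correlated at 0.17, 0.08 and -0.08 for numbers 30, 31 and 32, so the numbers were not taken to pair the arrays. Over the whole series, however, the deviations of 23 of the 27 arrays correlated best, on average, with arrays of their own number in the other groups. Hybridisation batches are not given in the sources used here.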
